A study of Mus musculus with 16 samples.

Results

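The 10 genes described here lie on mouse chromosome 4 beside Tas1r3, the gene of a subunit shared by the sweet and the umami taste receptor, which is knocked out in the study's mice. They are C1qtnf12, Fv1, Cenps, Mtor, Dvl1, Cptp, Mxra8, Ints11, Ube2j2 and Acap3. They were chosen by name from their position and with their KO against WT values in view, and a gene's value is the sum over its annotated transcripts. The 10 genes are of 23299 genes in the series, and all 10 passed the filter on low values that left 19042 genes for testing. Because the KO against WT values helped to choose them, those values are given as a description, without a test.

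The libraries were made from the terminal ileum, the last stretch of the small intestine, of C57BL/6 mice of both sexes. The 4 groups are Tas1r3+/+ mice on the normal diet (WT-ND), Tas1r3-/- mice on the normal diet (KO-ND), and the same genotypes on a Western diet (WT-WD and KO-WD). ND was D12450J pellets with plain water, and WD was the 60% high-fat diet D12492 with 30% sucrose in the water, each given for 10 weeks. The KO mice carry the allele Tas1r3tm1Csz in all their cells, backcrossed repeatedly to C57BL/6. The WT controls were littermates, and the labels list 2 males and 2 females in each group. An effect of the allele on its neighbours, any linked DNA kept through the backcross and the loss of the receptor cannot be told apart, since every KO library carries them together.

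Not every column is a library of its own. Both female columns of KO-ND equal weighted means of the 2 male columns in 59178 and 59177 of 59195 transcripts, so they were left out, and KO-ND holds 2 libraries. Both are male, while WT-ND holds both sexes, so that sex is partly mixed with genotype in every ND comparison. The female columns of KO-WD are related to each other and were averaged into 1 value, which leaves 3 libraries in KO-WD and 13 in all. In the female columns of WT-ND, 6 transcripts of 4 genes equal the same weighted means of the WT-ND males, and 2 of these 6 are Mtor-201 and Mtor-204. The implied depth was 7003162 to 12384197 reads a library. Values are RPKM, reads divided by transcript length and library total, further divided by a scaling factor for each library. Differences between groups are on the log2 scale with 0.5 added, which understates the change of low genes.

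Tas1r3 itself, at chr4:155859268-155863362 on the minus strand of GRCm38, was between 1.58 and 2.11 scaled RPKM in the 4 WT-ND libraries and between 4.23 and 6.54 in the 4 WT-WD libraries. In the 5 KO libraries it was at most 0.00516, which is less than the value of 1 read. The knocked-out gene was not detectable in any KO library at this depth. Its only transcript is 1 of 102, among 59258, with a value written to more than 6 digits in the columns used. The implied reads of Tas1r3 in the WT-ND males were 58.4 and 47.4, not whole, and the cause was not tested. Of the lists that mark cell types, those of the epithelium (6 of 6 genes) and of ileal enterocytes (4 of 4 genes) were measured in every group, with no marker at 0. The summed epithelial markers ranged from 3650 to 5833 scaled RPKM in WT-ND, from 3558 to 3577 in KO-ND, from 2374 to 4553 in WT-WD and from 1277 to 4931 in KO-WD. In bulk tissue, fewer cells of a type and less RNA per cell cannot be told apart.

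The 10 genes do unrelated work. C1qtnf12 encodes a secreted hormone-like protein of the C1q and TNF related family, also known as adipolin. Mtor encodes the kinase of both mTOR complexes, which couple nutrients to growth, and Dvl1 encodes a cytoplasmic relay of Wnt signals. Ints11 is the endonuclease of the Integrator complex, which cuts the ends of small nuclear RNAs, and Cenps is a histone-fold protein of the kinetochore that also works with the DNA repair helicase FANCM. Fv1 is a restriction factor against murine leukaemia viruses that descends from a retroviral gag gene, and its alleles differ among inbred strains. Ube2j2 is a ubiquitin-conjugating enzyme of the endoplasmic reticulum membrane, Cptp carries ceramide-1-phosphate between membranes, Acap3 is a GTPase-activating protein for Arf6, and Mxra8 is a cell surface adhesion protein that alphaviruses use as a receptor.

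Of the genes, 7 sit within 100 kb of Tas1r3, and the other 3 are further towards the centromere. Going along the chromosome, Mxra8 ends 15.2 kb before Tas1r3. Dvl1 (chr4:155847402-155859303, plus strand) runs into the end of Tas1r3 and overlaps it by 36 bases on the opposite strand. Whether the authors' counting used the strand is not given in the sources used here, so reads from this short overlap cannot be assigned. Cptp (chr4:155864723-155869440, minus strand) starts 105 bases from Ints11 (chr4:155869546-155889103, plus strand), and the 2 genes are read in opposite directions from the gap between them. Acap3 lies 28.5 kb from Tas1r3 and its start is 40 bases from that of Pusl1 on the other strand. Ube2j2 (chr4:155943831-155959604) and C1qtnf12 (chr4:155962318-155966629) follow at 80.5 and 98.96 kb. Cenps, Mtor and Fv1 lie 6.72, 7.30 and 7.99 Mb away, at chr4:149127121-149137629, chr4:148448611-148557683 and chr4:147868979-147870358. The last tested gene of the chromosome, Samd11, is 0.384 Mb beyond Tas1r3.

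The sequences shown are those that help to read the values. The first pair is the coding stretch by which the Ube2j2 transcripts Ube2j2-202 and Ube2j2-206 differ, since Ube2j2-206 is the one that separates the genotypes. Outside the coding sequence, the first and last exons of Ube2j2-206 are also 161 and 145 bases shorter. Exon 6 of the 7 exons of Ube2j2-202 (chr4:155956368-155956448, plus strand, GRCm38) is 81 bases long, 27 codons, and lies within the coding sequence. It is in capitals in the first line, between 20 bases of each neighbouring exon. Ube2j2-206 joins the neighbours directly, and the capitals in the second line mark 3 bases on each side of that junction. Both come from GENCODE M21.
Ube2j2-202: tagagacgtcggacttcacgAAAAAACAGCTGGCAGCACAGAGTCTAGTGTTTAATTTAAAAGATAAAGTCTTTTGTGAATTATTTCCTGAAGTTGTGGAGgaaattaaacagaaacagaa
Ube2j2-206: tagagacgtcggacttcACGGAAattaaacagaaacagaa

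The second pair is the whole gap between each set of divergent genes, shown because 1 stretch of DNA faces both starts. The letters are those of the plus strand from the RefSeq promoter table for GRCm38.p6, which has an entry for 9 of the 10 genes, and the gaps follow the GENCODE gene ends. Capitals mark matches on either strand to GGGCGG, the core of SP1 sites, to CCGGAA, the core of ETS factor sites, or to CCAAT, the box that NF-Y binds. A TATA box (TATAAA), the core TGACG of CREB sites and an E box (CACGTG) were also searched and had no match in either gap.
Cptp and Ints11, chr4:155869441-155869545: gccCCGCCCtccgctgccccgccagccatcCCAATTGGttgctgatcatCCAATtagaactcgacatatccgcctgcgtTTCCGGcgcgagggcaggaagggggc
Pusl1 and Acap3, chr4:155891782-155891821: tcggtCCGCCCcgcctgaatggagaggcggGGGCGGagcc

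The gap between Cptp and Ints11 is 64.8% G and C and holds 9 CG dinucleotides. It holds the SP1 core 1 time, the ETS core 1 time and CCAAT 3 times, of which 2 overlap on opposite strands. In the same window of 105 bases, 23.0% of the 32851 promoters of the table hold the SP1 core, 6.33% the ETS core and 19.7% CCAAT. The shorter gap before Acap3 holds the SP1 core 2 times, against 10.4% of promoters with at least 1 match in its window of 40 bases. These are matches of letters and not measured binding sites.

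C1qtnf12 had the largest difference between genotypes among the 10 genes, and it was lower in KO on both diets. Its scaled RPKM was 23.2 and 40.5 in the WT-ND males and 18.9 and 25.9 in the WT-ND females. In the KO-ND males it was 9.56 and 7.92. The WD libraries held 13.7 and 16.3 in the WT males and 15.99 and 31.0 in the WT females, against 7.16 and 4.85 in the KO males and 8.73 in the KO female mean. Every KO library was below every WT library, on each diet and over both. The log2 difference was -1.53 with an SE of 0.36 on ND (4 against 2 libraries) and -1.38 with an SE of 0.31 on WD (4 against 3), a level 2.89-fold and 2.60-fold higher in WT. The estimated reads behind these values were 158 to 344.9 in WT libraries and 56.0 to 87.0 in KO libraries.

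C1qtnf12 has 2 transcripts in the files, the coding C1qtnf12-201 of 1315 bases and 8 exons and the short non-coding C1qtnf12-203 of 423 bases. C1qtnf12-201 made up 72.6% of the gene's summed value in WT and was between 10.1 and 27.8 scaled RPKM there, against 2.83 to 6.03 in KO. C1qtnf12-203 overlapped between genotypes, with 0.278 to 12.7 in WT and 1.41 to 5.64 in KO. Its mean was 9.58 in WT-ND and 3.76 in KO-ND, and 3.12 in WT-WD and 2.73 in KO-WD. Over both diets the genotypes were thus apart in the coding transcript and overlapped in the short one, whose mean was also lower in KO on ND. Of the 7 other C1q and TNF related genes tested, 0 rose and 0 fell at an unadjusted limma p under 0.05 on either diet, where 4.58% of all genes passed on ND and 2.57% on WD, and their median log2 difference was 0.44 on ND and -0.06 on WD. The summed adipocyte markers Adipoq, Plin1, Cidec and Fabp4, none of them at 0, were 24.8 to 163.4 scaled RPKM in WT-ND, 68.1 to 113.1 in KO-ND, 27.9 to 119.1 in WT-WD and 29.5 to 152.1 in KO-WD, and overlapped between genotypes. The ileal enterocyte sums overlapped too, at 3479 to 6237 in WT-ND, 1881 to 5018 in KO-ND, 2499 to 14432 in WT-WD and 881 to 3446 in KO-WD. The epithelial sums of KO-ND lay below those of WT-ND. The part of cell make-up in the C1qtnf12 values was not tested.

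Ube2j2 was lower in KO on ND, and on WD its groups overlapped. The WT-ND libraries held 29.0 and 21.4 scaled RPKM in males and 24.8 and 25.8 in females, and the KO-ND males held 18.6 and 14.4. On WD the WT libraries lay between 15.1 and 21.7 and the KO libraries between 12.98 and 19.7. The log2 difference was -0.60 (SE 0.23) on ND and -0.11 (SE 0.20) on WD.

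Beneath this gene value, Ube2j2-206, which skips exon 6, was all but missing in KO. It was 0.644 and 5.55 in the WT-ND males, 6.27 and 14.7 in the WT-ND females, 0.496 and 4.90 in the WT-WD males and 8.16 and 3.04 in the WT-WD females. The highest KO library was at 0.0939. The estimated level in WT thus varied widely from library to library, from 2.22% to 57.0% of the gene's value, while in KO it was at most 0.504%. On a transcript of 922 bases, the lowest WT values, 0.496 and 0.644, stand for only a few reads. Of the 43552 transcripts that passed the filter on low values, 2 had every KO library below 0.25 of the lowest WT library (0.00459%), and these were Tas1r3-201 and Ube2j2-206. Both passed the filter through WT libraries alone, so this share is a description and not a test. Ube2j2-206 was also singled out after its values were seen. Of the Ube2j2 transcripts it is the only one annotated as joining exon 5 to exon 7. Ube2j2-202, which holds exon 6, overlapped between genotypes at 2.61 to 15.0 in WT and 6.64 to 13.4 in KO. Ube2j2-207, which covers exon 6 within a longer exon, and the short Ube2j2-208, which ends before it, overlapped too, with 1.09 to 2.48 and 0.521 to 1.98 in KO. Other transcripts that hold exon 6 were apart on single diets. On ND, Ube2j2-204 was 0.947 to 3.51 in WT and 0.490 and 0.739 in KO, and it overlapped on WD. The low Ube2j2-205 was below WT in KO-ND and above it in KO-WD. Without Ube2j2-206 the gene's value was 6.96 to 28.3 in WT and 12.98 to 19.6 in KO, so that the groups overlapped. Short reads are shared out among overlapping transcripts by the quantification, so these are estimates for each transcript. Of the 8 other genes tested for the marking of proteins for degradation at the endoplasmic reticulum, such as the enzymes Ube2j1 and Syvn1 and the ligase adaptor Sel1l, 0 rose and 0 fell at an unadjusted limma p under 0.05 on either diet, with a median log2 difference of -0.24 on ND and -0.08 on WD.

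**Figure D1:**
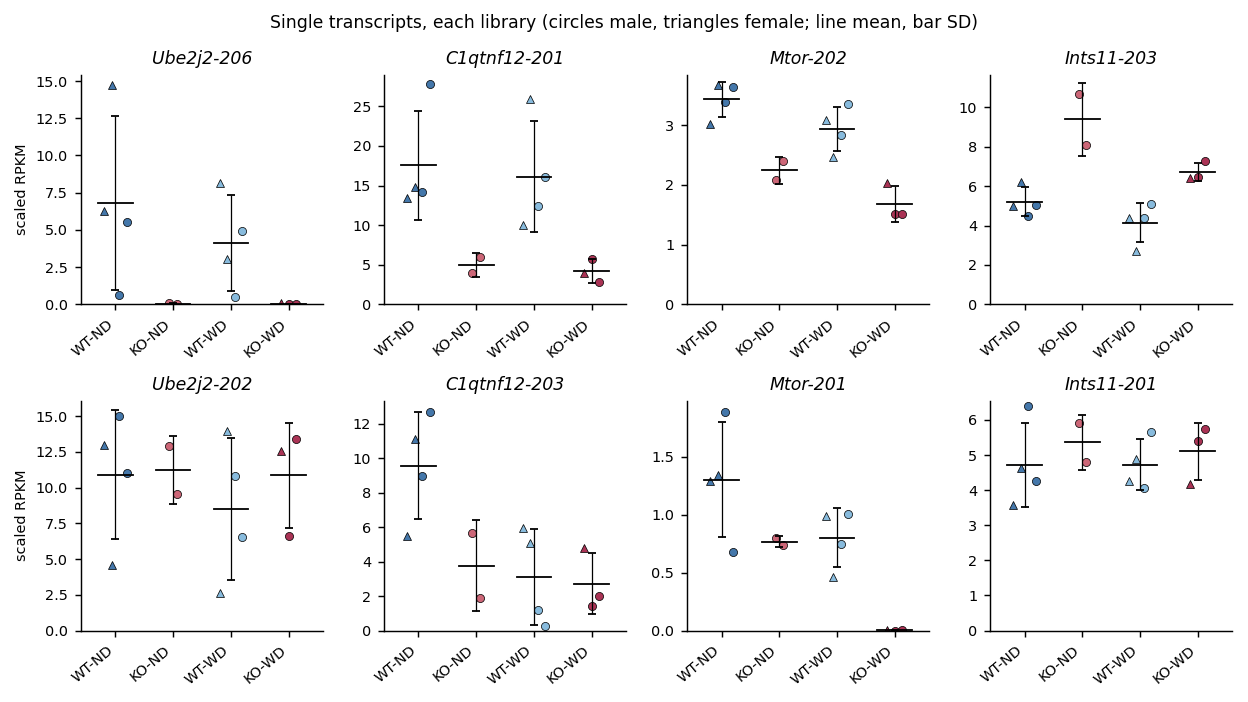
Scaled RPKM of 8 transcripts of 4 genes (vertical axes, from 0) in the 13 libraries by group; circles are males, triangles females, lines group means and bars SDs. The top row holds transcripts whose KO libraries lie beyond all WT libraries, such as Ube2j2-206 at no more than 0.0939 in KO, and the bottom row another transcript of the same gene.

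Fv1 was lower in every KO library than in every WT library, at a low level. It has a single transcript of 1380 bases, so that its reads can be counted back from the RPKM. The WT-ND males had 24 and 21 reads and the females 27 and 29, and the WT-WD males had 23 and 28 and the females 22 and 22. The KO-ND males had 9 and 13 reads, the KO-WD males 10 and 8, and the KO-WD female mean came to 9.21. In scaled RPKM, WT libraries lay between 1.46 and 1.85 and KO libraries between 0.474 and 0.956. The log2 difference was -0.76 (SE 0.24) on ND and -0.87 (SE 0.21) on WD, and with 0.1 added in place of 0.5 it was -1.03 and -1.20. Because Fv1 resembles other retroviral copies in the genome, reads could be assigned to the wrong copy, and its level is uncertain to that extent. The implied reads of each single library were whole within 0.02 reads, and how reads were assigned among copies was not tested.

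Mtor was also lower in every KO library than in every WT library. The gene's value was 6.49 and 6.74 in the WT-ND males, 5.58 and 6.63 in the WT-ND females, and 3.64 and 4.47 in the KO-ND males. On WD it was 6.15 and 5.26 in the WT males, 5.25 and 4.68 in the WT females, 2.46 and 2.79 in the KO males and 3.48 in the KO female mean. This gave a log2 difference of -0.59 (SE 0.20) on ND and -0.78 (SE 0.18) on WD. These sums hold Mtor-201 and Mtor-204, whose values in the WT-ND female columns equal weighted means of the males. Leaving both transcripts out, the difference was -0.51 on ND and -0.69 on WD.

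The full-length coding transcript Mtor-202, of 8564 bases, is not among them and showed the difference on its own. It ranged from 3.02 to 3.67 in WT-ND, from 2.09 to 2.40 in KO-ND, from 2.47 to 3.35 in WT-WD and from 1.51 to 2.03 in KO-WD. The short Mtor-201 was 0.463 to 1.89 in WT, 0.735 and 0.799 in KO-ND and at most 0.00389 in KO-WD. Of the 7 other genes of the mTOR complexes that were tested, from the scaffold Rptor to the inhibitor Deptor, 0 rose and 0 fell in KO on either diet at an unadjusted p under 0.05 by limma, and their median log2 difference was -0.03 on ND and 0.05 on WD.

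Cenps was higher in KO on both diets, with an overlap on WD. It was 4.62 and 4.98 in the WT-ND males, 4.51 and 3.82 in the WT-ND females, and 5.34 and 9.30 in the KO-ND males. WD-fed mice had 5.75 and 4.49 in the WT males and 3.04 and 2.96 in the WT females, against 8.01 and 8.82 in the KO males and 5.57 in the KO female mean. The KO female mean was below the highest WT-WD male. The log2 difference was 0.61 (SE 0.30) on ND and 0.83 (SE 0.26) on WD. On ND it rests in part on the second KO male, whose retained-intron transcript Cenps-204 was at 3.93 scaled RPKM, against 0.0592 in the first KO male. Without that library the ND difference was 0.23. In WT mice Cenps was lower in females than in males (log2 difference -0.43). Both KO-ND libraries are male, so sex is mixed into the ND difference. The main transcript Cenps-201 (58.4% of the WT value) overlapped on ND, at 2.33 to 3.38 in WT and 1.93 and 2.97 in KO. Its ND mean was 2.89 in WT and 2.45 in KO. On WD it was 1.53 to 2.73 in WT and 2.83 to 3.29 in KO, without overlap.

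Among the partners of Cenps in the kinetochore and with FANCM, 4 others were tested. Cenpw, which pairs with CENP-T, rose in KO-ND (log2 difference 0.78, unadjusted p = 0.0403 by limma), from a mean of 1.59 ± 0.567 to 3.01 ± 0.560 scaled RPKM (SD, n = 4 and 2). On WD it was 2.22 ± 0.808 in WT and 2.82 ± 0.599 in KO (n = 4 and 3). The remaining 3 did not pass on either diet. Genes of dividing cells (Mki67, Top2a, Ccnb1 and Cdk1) moved with Cenps: their summed level was 49.1 to 85.1 scaled RPKM in WT-ND, 100.2 to 129.8 in KO-ND, 41.2 to 101.2 in WT-WD and 74.3 to 136.4 in KO-WD, with none of the 4 genes at 0. Over the 13 libraries the log2 sums and Cenps had a Pearson r of 0.77 and a Spearman rho of 0.70, given as a description, since the libraries share groups and depth. The part of dividing cells in the Cenps values was not tested.

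Ints11 was higher in KO on both diets. It was 13.9 and 15.0 in the WT-ND males, 12.03 and 14.6 in the WT-ND females, and 19.7 and 18.5 in the KO-ND males. In WD-fed mice the values were 12.7 and 15.5 in the WT males, 12.03 and 10.03 in the WT females, 15.7 and 20.3 in the KO males and 15.2 in the KO female mean. The groups did not overlap on ND, and on WD the KO female mean was just below the highest WT male. The resulting log2 difference was 0.45 (SE 0.20) on ND and 0.43 (SE 0.18) on WD. It came mostly from Ints11-203, a retained-intron transcript of 517 bases, which was 2.73 to 6.23 in WT and 6.43 to 10.7 in KO without overlap. Another retained-intron transcript, Ints11-205 of 481 bases, overlapped on ND. On WD it was 0.326 to 1.66 in WT and 2.18 to 4.21 in KO without overlap, and so added to the WD difference. The coding Ints11-201 overlapped, at 3.58 to 6.40 in WT and 4.18 to 5.92 in KO. When transcripts were weighted by length, which gives short transcripts less room, the difference was 0.26 on ND and 0.20 on WD.

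The other Integrator subunits lie on other parts of the genome, and 13 were tested. Of these, 1 rose and 0 fell on ND, and 2 rose and 0 fell on WD, at an unadjusted p under 0.05. Over all genes, 4.58% and 2.57% passed, so that 1 of 13 on ND is near the share of all genes. Ints1, the largest subunit, on chromosome 5, rose on both diets: from 10.05 ± 0.513 to 13.4 ± 1.15 scaled RPKM on ND (SD, n = 4 and 2, log2 difference 0.40, unadjusted p = 0.0438) and from 8.94 ± 1.22 to 11.95 ± 0.722 on WD (n = 4 and 3, 0.41, unadjusted p = 0.0229). Ints10 rose on WD (0.57, unadjusted p = 0.029). These p-values are from limma's test over all genes, and no Integrator gene passed after Benjamini-Hochberg adjustment. The median over the 13 subunits was 0.03 on ND and -0.08 on WD. Ints1 was also the gene with the second highest correlation to Ints11 over the 13 libraries (Pearson r = 0.92), a comparison made after the values were seen.

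Dvl1, Cptp, Acap3 and Mxra8 had KO values that overlapped the WT values on at least 1 diet. Dvl1 was 16.1 to 22.3 in WT-ND and 19.1 and 21.2 in KO-ND, a log2 difference of 0.06 (SE 0.20). On WD all 3 KO libraries, at 18.7, 20.1 and 26.6, were above the 4 WT libraries at 15.6 to 18.7, by a margin too small to show at 3 digits, and the difference was 0.32 (SE 0.17). Its direction on ND turned to -0.10 without scaling. Most of the Dvl1 value, 67.3% in WT, was assigned to the retained-intron transcript Dvl1-205. The other dishevelled genes, Dvl2 and Dvl3, had no unadjusted p under 0.05 on either diet.

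Cptp was 11.5 to 21.4 in WT-ND and 19.4 and 21.0 in KO-ND, with a log2 difference of 0.29 (SE 0.38). WD-fed mice had 10.2 to 14.4 in WT, and 8.12, 18.3 and 26.4 in the KO libraries, so that 1 KO library was below all WT libraries and 2 were above them. The WD difference was 0.40 (SE 0.33), and it was 0.04 without the KO female mean. The 2 other genes of its lipid transfer family that were tested did not pass on either diet. The main coding transcript Cptp-201 (86.5% of the WT value) did not overlap on ND, at 11.1 to 14.9 in WT and 16.1 and 19.4 in KO. On WD it overlapped, at 10.2 to 12.7 in WT and 8.12 to 23.7 in KO. The shorter Cptp-202 overlapped on both diets. Cptp and Ints11, which share a gap of 105 bases, were thus both higher on average in KO. As sums over transcripts, only Ints11 was without overlap on ND.

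Acap3 was 4.37 and 4.68 in the WT-ND males, 8.42 and 6.16 in the WT-ND females and 8.68 and 10.1 in the KO-ND males, which are above all WT-ND libraries. On WD it was 2.83 to 7.58 in WT and 5.07 to 9.86 in KO. Its log2 difference was 0.66 (SE 0.36) on ND and 0.46 (SE 0.32) on WD. Of the 7 related Arf GAPs tested, Asap2 fell on ND from 8.49 ± 0.920 to 4.05 ± 0.139 (SD, n = 4 and 2, log2 difference -0.98, unadjusted p = 0.0132 by limma), and it was 6.62 ± 2.93 in WT-WD and 6.17 ± 2.31 in KO-WD.

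Mxra8 varied most within groups. It was 9.07 and 16.3 in the WT-ND males, 30.0 and 12.95 in the WT-ND females, and 33.1 and 38.0 in the KO-ND males, a log2 difference of 1.17 (SE 0.60). On WD it ran from 9.45 to 43.0 in WT and from 14.1 to 41.4 in KO, and the difference was 0.08 (SE 0.53). Its level moved with the fibroblast markers Col1a1, Col1a2, Col3a1, Dcn, Lum and Pdgfra, with a Pearson r of 0.81 and a Spearman rho of 0.84 between the log2 sums and Mxra8 over the 13 libraries. The summed markers were 156.1 to 259.6 scaled RPKM in WT-ND, 216.6 to 248.0 in KO-ND, 118.2 to 361.9 in WT-WD and 92.3 to 381.8 in KO-WD, and none of the 6 was at 0. Fibroblast markers were not the only ones to follow it. In WT-ND, WT-WD and KO-WD, the library highest in Mxra8 was also highest in summed smooth muscle markers (3338, 3938 and 5194 scaled RPKM). The same libraries were highest in summed enteric neuron markers (46.0, 89.7 and 69.4). In KO-ND the library with more Mxra8 had less of both. The part of fibroblasts, smooth muscle or neurons in the Mxra8 values was not tested.

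**Figure D2:**
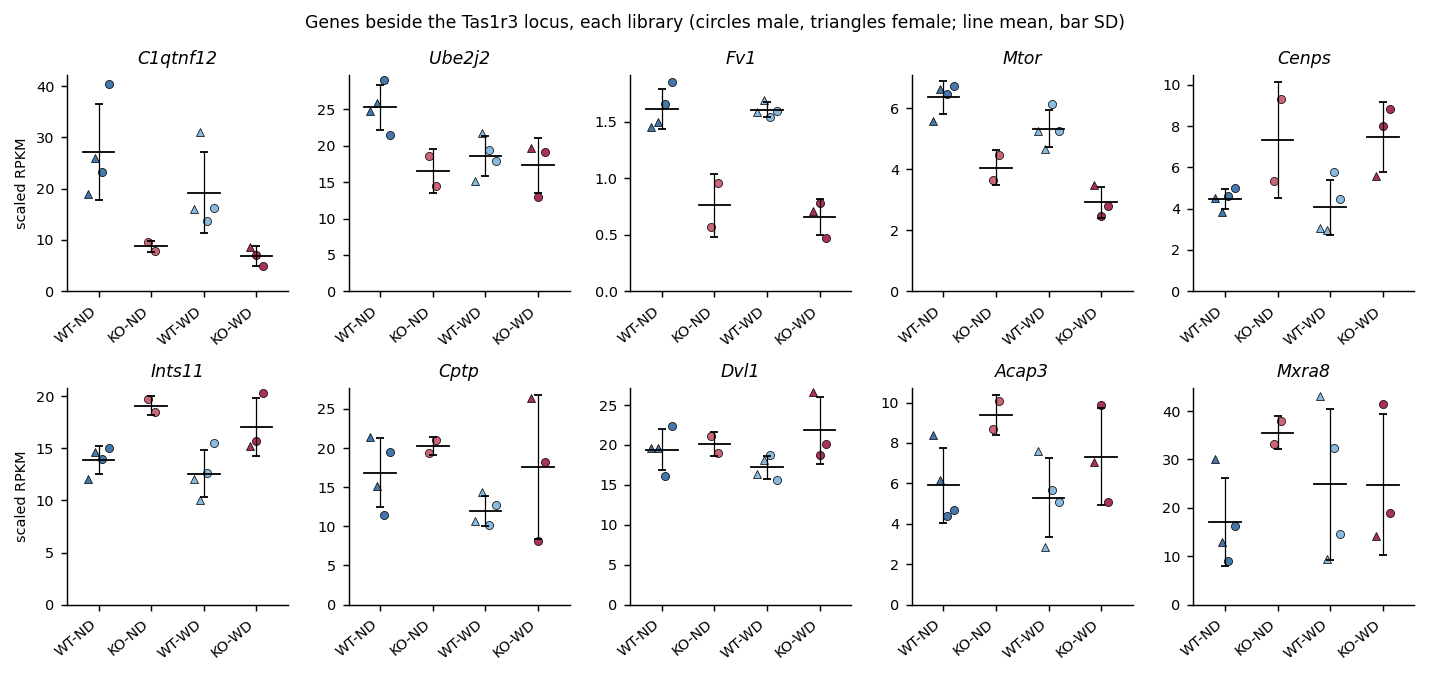
Scaled RPKM of the 10 genes (vertical axes, from 0) in the 13 libraries by group; circles are males, triangles females, lines group means and bars SDs. In C1qtnf12, Fv1 and Mtor the 5 KO libraries lie below all 8 WT libraries, and in the other 7 genes at least 1 KO library lies within the WT range.

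Set side by side, 6 of the 10 genes were higher in KO and 4 lower, and all 10 had the same sign on ND and on WD. The ND and WD comparisons share no library. Over all 19042 genes, 63.9% had the same sign on both diets. The count of 10 is not a test, because the genes were chosen with these values in view, and 3 of the signs (Dvl1 on ND, Mxra8 on WD and Ube2j2 on WD) turned under some alternative. The groups did not overlap for 8 of the 10 genes on ND, where 22.0% of all genes do not overlap between 4 WT and 2 KO libraries, and for 4 on WD, where the share is 2.78%. For 3 genes (C1qtnf12, Fv1 and Mtor) the 5 KO libraries lay beyond the 8 WT libraries, against 0.2% of all genes in either direction and 0.063% with KO below WT. Of the 39 transcripts of the 10 genes that passed the filter, 5 were apart in this way, C1qtnf12-201, Fv1-201, Mtor-202 and Ube2j2-206 below WT and Ints11-203 above it. The shares over all transcripts were 0.0873% below and 0.145% above.

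**Figure D3:**
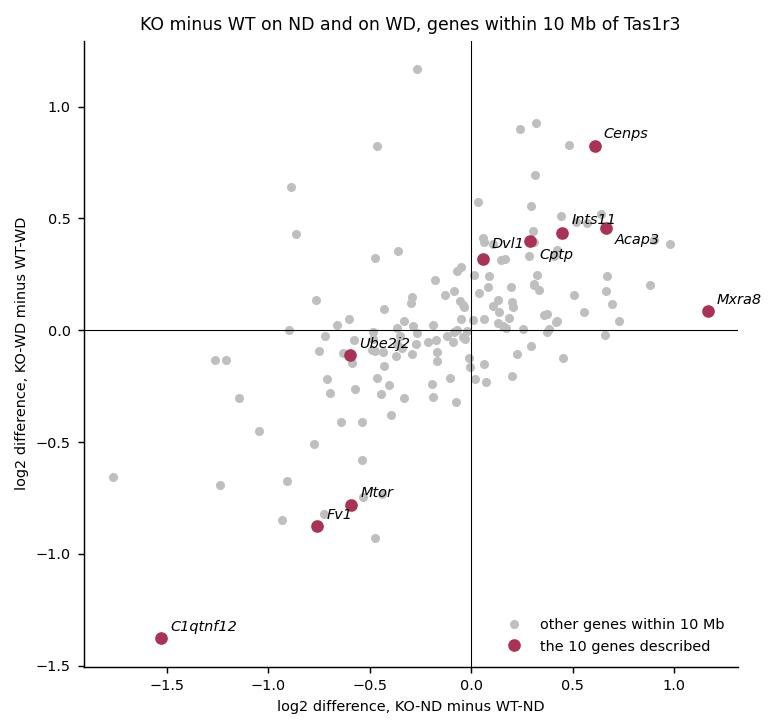
Log2 difference KO minus WT on ND (horizontal) against WD (vertical) for the 159 tested genes within 10 Mb of Tas1r3, without Tas1r3 itself. C1qtnf12, at -1.53 and -1.38, lies furthest towards the lower left, and Cenps, at 0.61 and 0.83, towards the upper right.

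The wider neighbourhood was counted to see whether genotype differences gather around the knocked-out gene. Within 10 Mb, 159 genes other than Tas1r3 were tested. On ND, 21 of them (13.2%) had an unadjusted p under 0.05 by limma, 16 lower and 5 higher in KO, against 4.58% of all genes. On WD, 11 (6.92%) had one, 4 lower and 7 higher, against 2.57% of all genes. Both diets in the same direction were passed by 4 genes (2.52%), against 0.504% of all genes, and the 4 were C1qtnf12, Fv1, Mtor and Ints11. Ints11 passed on both diets under 9 of 26 alternatives and did not under 17, among them the replicate block and sex as a covariate. C1qtnf12 passed under 26 of them, Mtor under 25 and Fv1 under 24; neither Mtor nor Fv1 passed without the first KO-ND male. These counts include genes that were chosen for their values. Without the 10 genes, 16 of 149 (10.7%) passed on ND, 6 (4.03%) on WD and 0 on both. Under 13 of the 26 alternatives at least 1 other gene of the window passed on both, such as Aurkaip1 and Nmnat1 with the replicate block. Closer in, again without the 10 genes, 5 of 78 (6.41%) within 5 Mb passed on ND and 4 (5.13%) on WD. Within 1 Mb, 4 of 45 (8.89%) passed on ND and 3 (6.67%) on WD. With adjusted p-values under 0.01 and changes of 2-fold or more, 0 genes of the 19042 were called on ND (873 had an unadjusted p under 0.05) and 2 on WD (0.0105%).

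Closest to Tas1r3 there are few other genes to count. Of the 7 other genes tested within 100 kb (Atad3a, Vwa1, Mrpl20, Ccnl2, Aurkaip1, Mxra8os and Pusl1), 0 passed on ND and 2 on WD, beside 4.58% and 2.57% of all genes. Vwa1, which encodes an extracellular matrix protein, fell on WD from 10.2 ± 7.11 to 4.56 ± 1.68 scaled RPKM (SD, n = 4 and 3, log2 difference -0.93, unadjusted p = 0.0455) and was 6.97 ± 2.42 in WT-ND and 4.64 ± 0.212 in KO-ND. Ccnl2, a cyclin of RNA processing, rose on WD from 52.5 ± 2.51 to 69.9 ± 14.0 (0.39, unadjusted p = 0.0394) and was 52.8 ± 4.79 in WT-ND and 55.5 ± 9.38 in KO-ND. Atad3a (0.28 on ND and 0.33 on WD), Mrpl20 (0.01 and 0.24), Aurkaip1 (0.42 and 0.36), Mxra8os (-0.36 and 0.36) and Pusl1 (0.08 and 0.19) did not pass. Pusl1, which faces Acap3 across the gap of 40 bases, was 11.2 ± 1.09 in WT-ND, 11.9 ± 0.295 in KO-ND, 11.03 ± 0.564 in WT-WD and 12.8 ± 2.71 in KO-WD.

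Signs on the 2 diets were alike more often near the locus, as a description. Of the 14 tested genes within 100 kb, 13 (92.9%) had the same sign on ND and WD, within 1 Mb 43 of 52 (82.7%), within 10 Mb 124 of 159 (78.0%) and within 20 Mb 205 of 282 (72.7%). Leaving out the 10 genes, the shares were 85.7%, 80.0%, 76.5% and 71.7%, beside the 63.9% of all genes. Neighbouring genes are not independent, and no test was made of these shares. Among single transcripts of the other genes within 10 Mb, 1 of 365 (0.274%) had its 5 KO libraries beyond the 8 WT libraries, a transcript of Mrpl20 at no more than 0.378 in WT and 0.443 to 1.37 in KO.

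**Figure D4:**
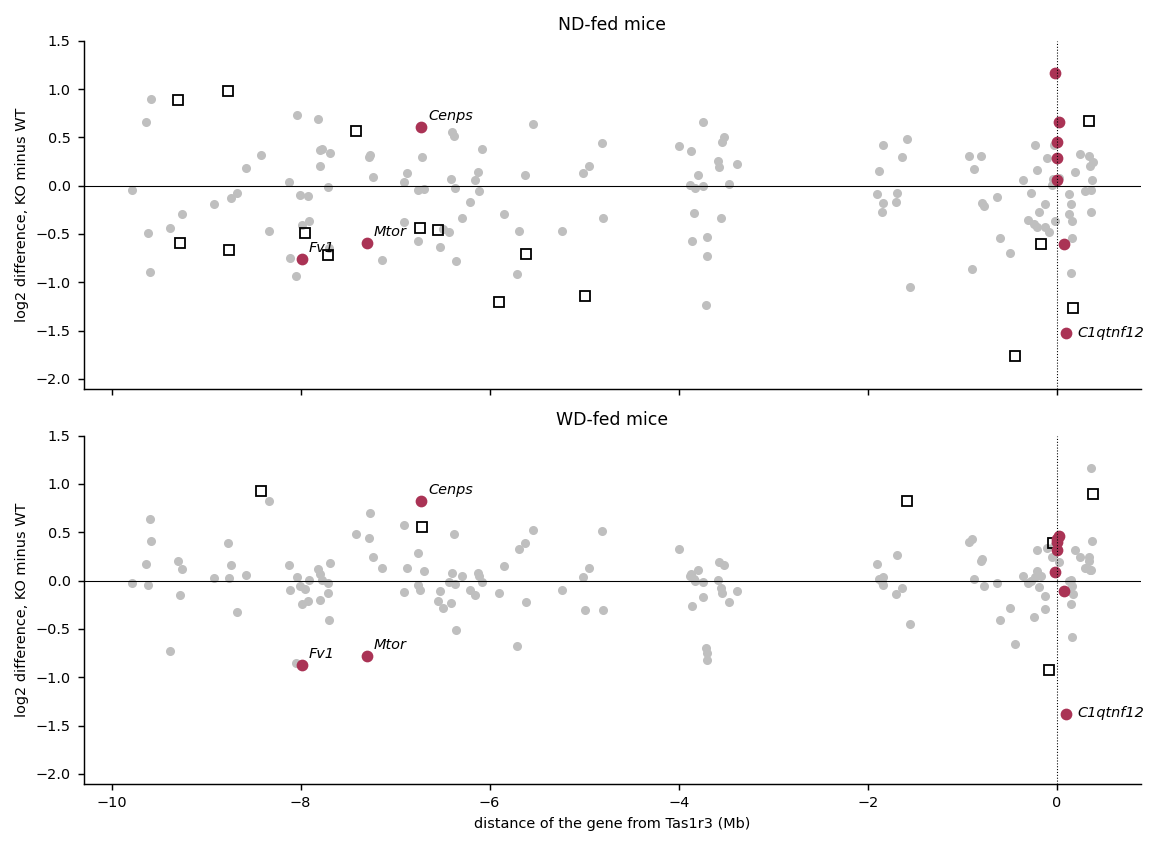
Log2 difference KO minus WT of the 159 genes (vertical) against their distance from Tas1r3 in Mb (horizontal, negative towards the centromere), on ND above and on WD below. Filled dark points are the 10 genes, open squares other genes with an unadjusted p under 0.05, and the far right ends at Samd11, 0.384 Mb beyond Tas1r3.

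Diet was tested in the same genes, since it played no part in choosing them. In WT mice, 9 of the 10 genes were lower and 1 higher on WD, with a median log2 difference of -0.17, and 50.2% of all genes were lower. Of the 10, 1 had an unadjusted p under 0.05, against 15.7% of all genes. This was Ube2j2, at 18.6 ± 2.77 scaled RPKM in WT-WD and 25.3 ± 3.12 in WT-ND (SD, n = 4 each, log2 difference -0.44, SE 0.18, unadjusted p = 0.0343 and adjusted p = 0.282 by limma). A two-sided exact permutation test of the same values gave p = 0.0571, where 0.0286 is the smallest that 4 against 4 can give, and the groups overlapped. The limma p rose above 0.05 when the first WT-ND male (difference then -0.37), either WT-ND female (-0.44 and -0.43), the second WT-WD male (-0.43) or the first WT-WD female (-0.35) was left out. Mtor was 5.34 ± 0.608 in WT-WD and 6.36 ± 0.527 in WT-ND (-0.24, unadjusted p = 0.179, permutation p = 0.0571), and for C1qtnf12 the means were 19.3 ± 7.93 and 27.1 ± 9.36 (-0.50, unadjusted p = 0.109, permutation p = 0.229). No gene of the 10 passed after adjustment by limma over all genes.

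In KO mice, 7 of the genes were lower and 3 higher on WD, and 0 had an unadjusted limma p under 0.05, against 5.33% of all genes. With 3 against 2 libraries the smallest permutation p is 0.2. The lowest limma p was that of Mtor, at 2.91 ± 0.518 in KO-WD and 4.06 ± 0.586 in KO-ND (SD, n = 3 and 2, log2 difference -0.42, unadjusted p = 0.0702, adjusted p = 0.929). Diet cannot be told apart from how the tables were made: the columns of ND mice summed to between 817011 and 819916 RPKM and those of WD mice to between 542371 and 672933. Without scaling, 6 of the 10 genes had a p under 0.05 in WT and 2 in KO, where 32.8% and 14.8% of all genes did and the median of all genes moved by -0.38 and -0.35.

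Between the sexes, compared in the 8 WT libraries with diet in the model, 5 of the genes were lower and 5 higher in females, and 0 had an unadjusted limma p under 0.05, against 11.3% of all genes. The nearest was Cenps, at 3.58 ± 0.727 in females and 4.96 ± 0.566 in males (SD, n = 4 each, log2 difference -0.43, unadjusted p = 0.0511, adjusted p = 0.443, two-sided exact permutation p = 0.0571). The sexes were not compared in KO, which has no separate female libraries on ND.

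The genes most like C1qtnf12, Fv1 and Cenps over the 13 libraries lay on other chromosomes. For C1qtnf12 they were Gm5548, Ano10 and Pcmtd2 (Pearson r = 0.93, 0.92 and 0.90), for Fv1 they were Sema7a, Bag4 and Ocm (0.92, 0.90 and 0.90) and for Cenps they were Trmt10a, C1qbp and Lsm2 (0.94, 0.91 and 0.90). Over all 10 genes, 0 of the 29 closest genes with a position, of 30 at 3 for each, lay on chromosome 4, where 6.03% of the tested genes lie. These are correlations across libraries that share groups and depth, and they are given without a p.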

How the data were processed

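The authors sequenced the RNA on the Ion Proton platform, mapped the reads with STAR to GRCm38 and quantified Ensembl release 91 transcripts in Partek Flow. The deposited values are RPKM per transcript (59258 transcripts, 16 columns). In 2 WT-ND libraries the implied reads came to 107% and 109% of the total that RPKM divides by, so the divisor may be that of TPM. Columns equal to weighted means were found with a relative tolerance of 1e-06. Reads were implied from steps in the values of genes with 1 transcript (86.9% to 88.2% whole within 0.02 reads); 1 read on 1 kb is worth 0.0692 to 0.139 RPKM.

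Names and positions came from GENCODE M21, which is on the same build, for 98.2% of transcripts. Transcript values were summed per gene. Library factors were means of log ratios after trimming 30% of ratios and 5% of levels. Genes that reached 1 RPKM in 2 or more of 13 libraries were fitted as log2(value + 0.5) with limma 3.58.1 in R 4.3.3, using 4 group means, a trended prior variance and p-values adjusted by Benjamini-Hochberg. Exact permutation tests used scipy 1.17.1. The fit was tested on simulated data. Genes were named by a rule: the 10 genes and Tas1r3, tested genes within 100 kb, genes within 10 Mb that pass on both diets, list genes with an unadjusted p under 0.05, and the 3 genes most like C1qtnf12, Fv1 and Cenps. The members and lists were chosen with earlier results of these data known. Alternatives were other scalings, pseudocounts, filters, windows, covariates and sample sets; a length-weighted gene value and males only were added after seeing the data.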

Additional observations from a re-analysis of the deposited data

How the results depend on the processing

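Few KO libraries and a shallow depth for Fv1 limit these results, and the KO female mean weighs on WD. Of the 20 genotype differences of the 10 genes, 17 kept their sign under every alternative and 3 did not: Dvl1 on ND (-0.10 to 0.16 on the log2 scale), Mxra8 on WD (-0.35 to 0.42) and Ube2j2 on WD (-0.23 to 0.08). The cause was not tested.

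Of the summary counts under alternatives, 145 were within 1.5 times their main value and 34 were not. The genes within 10 Mb that passed were 21 on ND, 11 on WD and 4 on both. They became 7, 5 and 2 of 52 genes within 1 Mb, and 7, 6 and 2 of 62 within 2 Mb. Within 5 Mb they were 8, 6 and 2 of 85, and within 20 Mb 18 of 282 passed on WD. These windows hold fewer or more genes, and the shares differed too. On ND the share was 13.5% within 1 Mb, 11.3% within 2 Mb, 9.41% within 5 Mb and 13.2% within 10 Mb. On WD the count was 7 without scaling and 7 of 98 at a mean RPKM of at least 5. On ND it was 39 with the 2 groups alone, where 11.4% of all genes passed. With all 16 columns as labelled, which counts weighted means as libraries, the counts were 46, 19 and 9, where 14.0% and 5.09% of all genes passed. Without scaling, 6 of the 10 genes passed between diets in WT and 2 in KO, and the median of all genes moved by -0.14 and -0.12 between genotypes on ND and WD. With a pseudocount of 0.1, 1 gene passed between the sexes.

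Leaving out 1 library at a time, the counts within 10 Mb ran from 13 to 27 on ND, from 6 to 23 on WD and from 2 to 8 on both. The lowest ND count came without either KO-ND male. The highest WD count came without the KO-WD female mean, where 10.1% of all genes passed, and the lowest without the second KO-WD male. Of the 10 genes, 0 to 2 passed between diets in WT, 0 to 1 between diets in KO and 0 to 1 between the sexes, and 8 to 10 kept the same sign on both diets.

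Replicate numbers were used as a replicate block in an alternative only, since samples with the same number did not always deviate together: over 16 pairs the correlation of their deviations was 0.11 on average, from -0.20 to 0.57, and 9 of 13 libraries correlated best with their own number. With the block, 19 genes within 10 Mb passed on ND, 10 on WD and 5 on both (C1qtnf12, Fv1, Mtor, Aurkaip1 and Nmnat1, without Ints11), 1 and 0 of the 10 genes passed between diets in WT and KO, and 9 of 10 kept the same sign.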
